A study of Mus musculus with 12 samples.

Results

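Voltage-gated potassium channels of the Kv1 to Kv4 families were followed in the mouse hippocampus after kainic acid (KA), which excites neurons through kainate receptors, was given into the amygdala. The 9 genes chosen were the pore subunits Kcna1, Kcna2, Kcna4, Kcnc1, Kcnc2, Kcnd2 and Kcnd3 and the auxiliary subunits Kcnab2 and Kcnip3. They were found by the gene symbol that the probe annotation pairs with each probe set. Of the 9 genes, 8 were measured, by 21 of the 45141 probe sets of the array, and all 8 were among the 13853 genes tested. No probe set used here carried the symbol Kcnd2, so that gene was not analysed here. Hybridised RNA came from the hippocampus on the injected side of mice, on 12 Affymetrix MG-430 PM arrays. The 3 KA arrays at 8 h and the 3 KA arrays at 14 d came from animals given 0.3 µg KA in 0.2 µl into the amygdala and, 40 min later, lorazepam (a benzodiazepine, 6 mg/kg into the peritoneum). The 3 control (CTR) arrays at each time came from animals given the same volume of vehicle there, with lorazepam in controls not mentioned. If the controls got none, KA and lorazepam cannot be told apart at either time. No group carries a mutation or transgene in the labels, and strain, sex and age are not given.

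Kv channels open on depolarisation, and the potassium efflux repolarises the membrane, so they set spike width, firing rate and transmitter release. Kv1 subunits form tetramers that sit mainly on axons and terminals, and Kvβ proteins attach to them on the cytoplasmic side. Kv3 channels open and close fast and are known for the rapid firing of parvalbumin interneurons. Kv4 channels carry the fast inactivating A-type current of pyramidal cell dendrites and work with KChIP and DPP partners. Mutations of KCNA1 and KCNA2 cause human epilepsy and ataxia, and mice without Kcna1 have seizures.

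At 8 h, 3 of the 8 measured genes were higher after KA (Kcna4, Kcnip3 and Kcnd3) and 4 were lower (Kcna2, Kcnab2, Kcnc1 and Kcnc2), all past an adjusted p of 0.05 in limma. Kcna1 did not pass. Of all genes tested, 17.5% passed at 8 h, with 7.92% higher and 9.55% lower. At 14 d only Kcnip3 passed among these 8, again higher, where 2.56% of all genes passed and 1.99% were higher. Kcna4 overlapped the controls by then. The KA and control arrays did not overlap for 8 of 8 genes at 8 h, against 33.8% of all genes, and for 6 of 8 at 14 d, against 16.5%. The genes were chosen with earlier results of these arrays known, so these counts describe the family and are no independent evidence about it. The median log2 change of the 8 genes was -0.08 at 8 h and -0.06 at 14 d, beside -0.02 and -0.01 over all genes. The plot of levels by array shows each value.

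**Figure D1:**
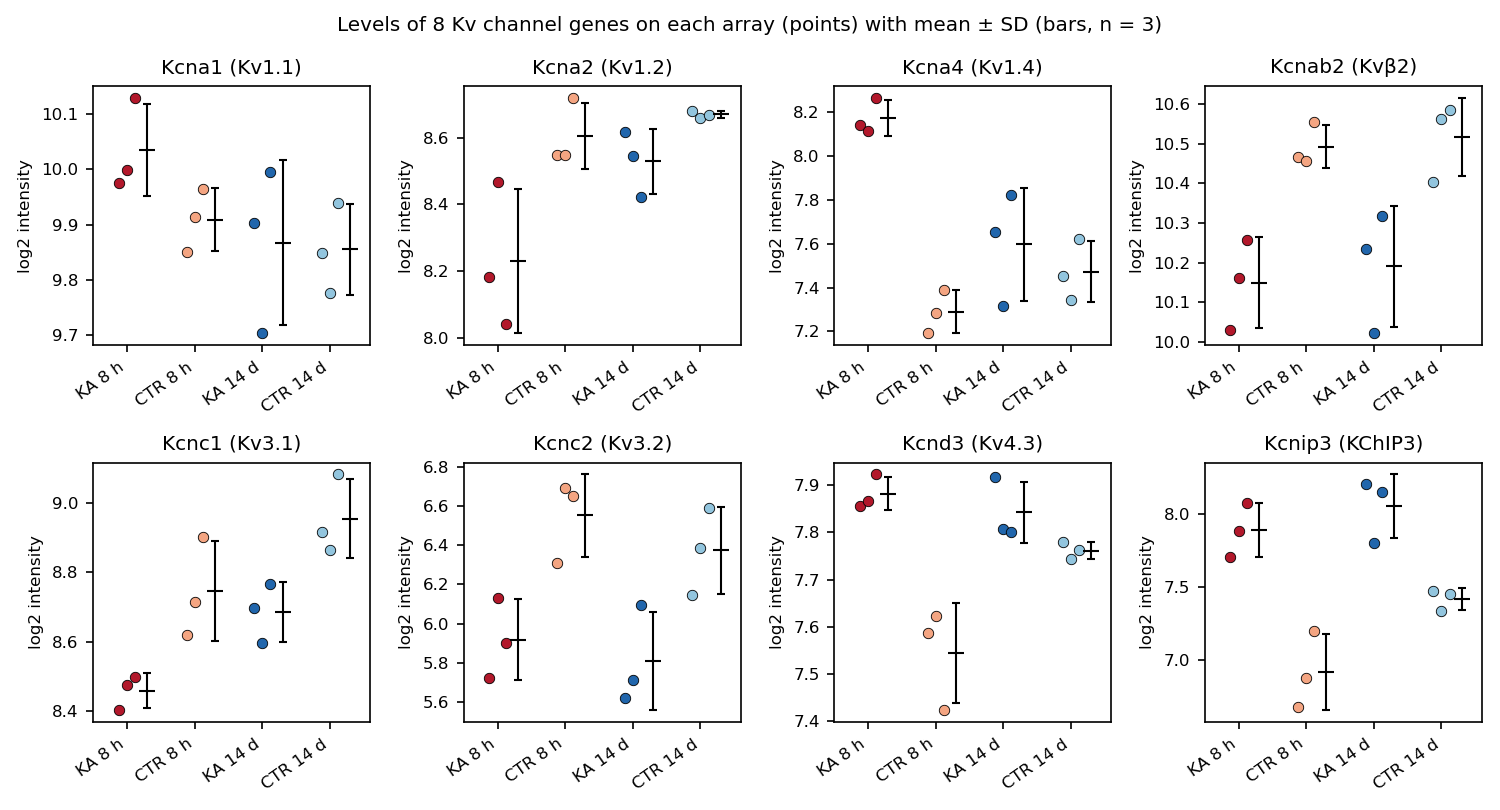
Log2 intensity of 8 Kv channel genes on each array, 1 panel per gene at its brightest probe set, with KA and CTR arrays at 8 h and then at 14 d. Points are arrays and bars are the mean ± SD (n = 3). Each vertical axis has its own range and does not start at 0. At 8 h the KA arrays of Kcna4 lie between 8.11 and 8.27, above all control arrays (7.19 to 7.39).

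Some facts of the arrays touch all results. The median of an array was 4.90 to 4.95, and correlations within groups were 0.989 to 0.997. Xist, the RNA of X inactivation, was at 7.39 to 8.71 on the KA arrays at 8 h and at 4.19 to 4.67 on the other arrays, and the Y-linked Eif2s3y was at 5.57 to 6.83 against 7.46 to 8.09. The KA arrays at 8 h thus had high Xist and also Eif2s3y above the background of GC-rich control probe sets (3.93 to 4.44). Whether these arrays mix RNA of both sexes was not tested. At 8 h, sex and KA cannot be told apart. The sample titles give 8 h, but a separate time entry rises with each sample in order, also within a group. It runs from 8 to 10 h for the controls at 8 h and then from 11 to 13 h for the KA arrays. Time and KA cannot be told apart if that entry holds. Whether each array stands for its own animal is not said, so p-values measure the spread between these samples, which may be technical.

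The promoter sequences of the genes with the largest rises (Kcna4 and Kcnip3) and of 3 genes that fell (Kcna2, Kcnc1 and Kcnab2) are printed because these genes moved in opposite directions at 8 h. They run 5′ to 3′ from 250 bases before to 50 bases after a RefSeq start in GRCm38.p6. Capitals mark matches, on either strand, to motifs of factors that neuronal activity induces or activates. The motifs were the cAMP response element TGACGTCA, its core TGACG, the AP-1 site TGANTCA and the EGR site GCGNGGGCG. A full element always holds a core.
Kcna4, chr2:107290339-107290638, + strand: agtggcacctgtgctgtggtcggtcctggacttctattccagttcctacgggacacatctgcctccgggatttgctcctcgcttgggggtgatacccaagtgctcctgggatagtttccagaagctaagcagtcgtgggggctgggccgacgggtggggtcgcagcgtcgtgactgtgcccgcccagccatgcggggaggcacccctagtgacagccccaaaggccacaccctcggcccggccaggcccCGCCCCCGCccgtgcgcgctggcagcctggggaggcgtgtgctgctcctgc
Kcnip3, chr2:127522045-127522344, - strand: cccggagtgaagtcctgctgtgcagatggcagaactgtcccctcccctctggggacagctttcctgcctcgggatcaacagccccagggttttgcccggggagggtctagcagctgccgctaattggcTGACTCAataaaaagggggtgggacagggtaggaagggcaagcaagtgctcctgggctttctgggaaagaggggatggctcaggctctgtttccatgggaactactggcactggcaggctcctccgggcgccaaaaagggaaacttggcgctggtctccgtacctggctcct
Kcna2, chr3:107101317-107101616, + strand: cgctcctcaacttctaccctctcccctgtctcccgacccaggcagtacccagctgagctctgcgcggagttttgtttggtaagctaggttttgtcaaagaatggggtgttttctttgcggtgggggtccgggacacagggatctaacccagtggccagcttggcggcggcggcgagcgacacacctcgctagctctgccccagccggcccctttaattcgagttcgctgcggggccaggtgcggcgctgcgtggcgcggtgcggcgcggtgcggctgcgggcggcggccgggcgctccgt
Kcnc1, chr7:46396218-46396517, + strand: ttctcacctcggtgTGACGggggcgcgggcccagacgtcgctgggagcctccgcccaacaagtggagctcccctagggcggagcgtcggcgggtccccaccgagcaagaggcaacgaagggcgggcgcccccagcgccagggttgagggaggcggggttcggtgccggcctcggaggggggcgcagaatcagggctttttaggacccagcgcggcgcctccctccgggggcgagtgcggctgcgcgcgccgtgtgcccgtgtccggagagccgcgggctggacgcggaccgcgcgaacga
Kcnab2, chr4:152477500-152477799, - strand: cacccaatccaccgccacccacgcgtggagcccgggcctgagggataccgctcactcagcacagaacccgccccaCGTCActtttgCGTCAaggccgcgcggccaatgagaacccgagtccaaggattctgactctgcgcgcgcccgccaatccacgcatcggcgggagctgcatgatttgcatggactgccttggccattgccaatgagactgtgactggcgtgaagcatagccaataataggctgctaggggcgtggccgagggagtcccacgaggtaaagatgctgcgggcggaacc

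The Kcna4 window held 1 EGR match and the Kcnip3 window 1 AP-1 match. The Kcnc1 window held 1 core, the Kcnab2 window 2, and the Kcna2 window held none of the 4 motifs. Of 32851 promoter windows of this length in the table, 1.79% held the full element, 20.8% a core, 7.81% an AP-1 match and 5.55% an EGR match. Both directions of change thus had windows with a match. RefSeq windows were found for 8 of the 9 genes, 15 in all, and not for Kcna1. The windows not printed (1 of Kcnd2, 1 of Kcnd3, 2 more of Kcnip3, 2 more of Kcnab2 and 4 of Kcnc2) held none of these motifs.

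Kcna4 (probe set 1422255_PM_at) encodes Kv1.4, the Kv1 subunit that inactivates fast by its N-terminal ball and is found on mossy fibre and Schaffer collateral axons. It was at 8.14, 8.11 and 8.27 (log2 intensity) on the KA arrays at 8 h, against 7.19, 7.28 and 7.39 on the control arrays. All KA arrays were above all control arrays, and the gene was 1.85-fold higher (log2 change 0.88 ± 0.12, SE, n = 3 per group, adjusted p = 7.58e-05). At 14 d it was at 7.65, 7.32 and 7.82 on the KA arrays, against 7.45, 7.34 and 7.62 on the control arrays. The groups overlapped there, with a log2 change of 0.12 and a 95% interval from -0.12 to 0.37. The change at 14 d was smaller than the change at 8 h by a test of the difference itself (-0.76 ± 0.16, log2, adjusted p = 0.0118). Kcna4 was the only one of the 8 genes, at the probe set used for each, to pass that test. Of all genes, 5.52% passed it (2.45% higher and 3.06% lower). Its call at 8 h and this difference held in every alternative run.

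Kcnip3 (probe set 1449129_PM_a_at) encodes KChIP3, a calcium-binding partner of Kv4 channels that is also known as calsenilin and, as DREAM, as a repressor of transcription. At 8 h it was at 7.71, 7.88 and 8.08 on the KA arrays, against 6.68, 6.88 and 7.20 on the control arrays. The 3 KA arrays were all higher, by 1.96-fold (log2 change 0.97 ± 0.14, adjusted p = 0.000137). At 14 d the KA arrays were at 8.21, 7.80 and 8.15, against 7.33 to 7.47 on the control arrays. Again no KA array fell within the controls, and the gene was 1.55-fold higher (0.63 ± 0.14, adjusted p = 0.0173). Both Kcnip3 probe sets rose at both times, the second one by 0.55 at 8 h and 0.64 at 14 d. The 14 d call at the brighter probe set was lost without KA replicate 1 (adjusted p = 0.102), control replicate 2 (0.0964) or control replicate 3 (0.0564) at 14 d. The control level itself was 0.50 higher at 14 d than at 8 h, which did not pass (adjusted p = 0.0757) but did so in 7 alternatives, among them without control 8 h replicate 3 (0.0352) or KA 14 d replicate 2 (0.0414). At the second probe set the control level differed by 0.12 only (adjusted p = 0.745 over all probe sets). The change at 14 d less that at 8 h was -0.34 at the brighter probe set, with a 95% interval from -0.74 to 0.07.

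Kcnd3 (probe set 1426070_PM_a_at) encodes Kv4.3, the A-type pore subunit found in hippocampal interneurons and granule cells. It was at 7.86, 7.87 and 7.92 on the KA arrays at 8 h, against 7.59, 7.62 and 7.42 on the control arrays. The groups did not overlap, and the rise was 1.26-fold (log2 change 0.34 ± 0.08, adjusted p = 0.00682). All 4 Kcnd3 probe sets were higher after KA at 8 h, by 0.34 to 0.51, and 2 of them passed over all probe sets, where 14.8% passed. At 14 d Kcnd3 was at 7.92, 7.81 and 7.80 on the KA arrays, against 7.74 to 7.78 on the control arrays. The groups did not overlap, but the change of 0.08 had a 95% interval from -0.09 to 0.25. The 4 probe sets had changes of -0.13 to 0.15 there, with 2 of either sign, and none passed. The change of Kcnd3 at 14 d less that at 8 h was -0.26, with a 95% interval from -0.49 to -0.02. That difference did not pass (adjusted p = 0.227), and it was below 0 at all 4 probe sets (-0.60 to -0.26). The 8 h call was lost without replicate 3 of every group, an alternative added after seeing the data (0.26, adjusted p = 0.0944).

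**Figure D2:**
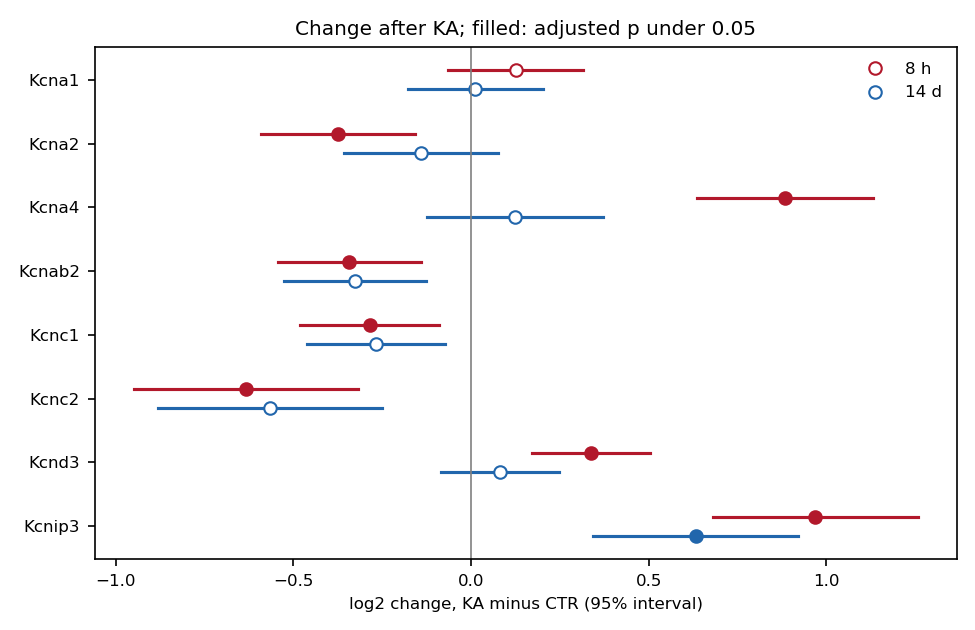
Log2 change (KA minus CTR) of 8 Kv channel genes at 8 h (red) and 14 d (blue), with 95% intervals from limma and filled points at an adjusted p under 0.05. Kcna4, Kcnd3 and Kcnip3 lie right of 0 at 8 h and Kcna2, Kcnab2, Kcnc1 and Kcnc2 left of it. At 14 d only Kcnip3 (0.63) is filled.

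Kcna1 and Kcna2 encode Kv1.1 and Kv1.2, which form the low-threshold axonal channels, and Kcnab2 encodes Kvβ2, their main brain β subunit. Kcna2 (probe set 1439872_PM_at) was at 8.18, 8.47 and 8.04 on the KA arrays at 8 h, against 8.55, 8.55 and 8.72 on the control arrays. Every KA array was lower, and the gene was lower (log2 change -0.37 ± 0.10, adjusted p = 0.0187). Its other 2 probe sets fell further, by changes of -0.68 (adjusted p = 0.00146) and -0.71 (adjusted p = 0.000378) over all probe sets. At the brightest probe set the call was lost without KA 8 h replicate 1 (adjusted p = 0.0686), KA 8 h replicate 3 (0.0879) or control 8 h replicate 3 (0.0903). It was also lost without replicate 3 of every group (-0.22, adjusted p = 0.211) and with cyclic loess (adjusted p = 0.0557). At 14 d Kcna2 was at 8.62, 8.55 and 8.42 on the KA arrays, against 8.66 to 8.68 on the control arrays. All KA arrays were below the controls, but the change of -0.14 had a 95% interval from -0.36 to 0.08. The change at 14 d less that at 8 h passed at 1 of the 3 Kcna2 probe sets (0.57 ± 0.15, adjusted p = 0.0489 over all probe sets). At the brightest it did not (0.23 ± 0.14, adjusted p = 0.459).

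Kcna1 (probe set 1417416_PM_at) was at 9.98, 10.00 and 10.13 on the KA arrays at 8 h, against 9.85, 9.91 and 9.96 on the control arrays. The 3 KA arrays lay just above the controls, with a log2 change of 0.13 and a 95% interval from -0.07 to 0.32 (adjusted p = 0.413). At 14 d the groups overlapped, with a change of 0.01 and an interval from -0.18 to 0.20. That sign turned in 5 alternatives, 3 of them with 1 array left out. None of its 4 probe sets passed at either time.

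Kcnab2 (probe set 1416956_PM_at) was at 10.03, 10.16 and 10.26 on the KA arrays at 8 h, against 10.47, 10.46 and 10.55 on the control arrays. It was lower on every KA array, by 1.27-fold (log2 change -0.34 ± 0.09, adjusted p = 0.0198), and its other probe set was lower by a change of -0.28 (adjusted p = 0.0525 over all probe sets). The call was lost without KA 8 h replicate 1 (adjusted p = 0.0946) or control 8 h replicate 3 (0.0802). At 14 d it was at 10.23, 10.02 and 10.32 on the KA arrays, against 10.40, 10.56 and 10.59 on the control arrays. The groups again did not overlap, with a change of -0.33 ± 0.09 that did not pass (adjusted p = 0.0918). It did so without KA 14 d replicate 3 (-0.39, adjusted p = 0.0486) and in 4 other alternatives. The change of Kcnab2 at 14 d less that at 8 h was 0.02, with a 95% interval from -0.27 to 0.30.

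Kcnc1 and Kcnc2 encode Kv3.1 and Kv3.2, which in the hippocampus are found mainly in fast-spiking interneurons. Kcnc2 (probe set 1455258_PM_at) was at 5.72, 6.13 and 5.90 on the KA arrays at 8 h, against 6.31, 6.69 and 6.65 on the control arrays. The KA arrays were all lower, by 1.55-fold (log2 change -0.63 ± 0.15, adjusted p = 0.00746), and this call held in every alternative run. At 14 d it was at 5.62, 5.71 and 6.09 on the KA arrays, against 6.15, 6.39 and 6.59 on the control arrays. Again no array overlapped, and the change of -0.56 ± 0.15 did not pass (adjusted p = 0.0593). It passed without control 8 h replicate 1 (adjusted p = 0.0494), KA 14 d replicate 3 (-0.71, 0.0144) or control 14 d replicate 1 (-0.68, 0.0439).

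Kcnc1 (probe set 1423559_PM_at) was at 8.40, 8.48 and 8.50 on the KA arrays at 8 h, against 8.62, 8.72 and 8.90 on the control arrays. All KA arrays were lower, and the gene was 1.22-fold lower (log2 change -0.29 ± 0.09, adjusted p = 0.0426). This was the call nearest the threshold among the 7. It was lost without any 1 of 8 arrays, namely KA 8 h replicate 1 (adjusted p = 0.137), 2 (0.0779) or 3 (0.0670), control 8 h replicate 2 (0.0882) or 3 (0.201), KA 14 d replicate 1 (0.0566) and control 14 d replicate 1 (0.0555) or 2 (0.0524). Of its 4 probe sets, all were lower at 8 h and 2 passed. At 14 d Kcnc1 was at 8.70, 8.60 and 8.77 on the KA arrays, against 8.92, 8.86 and 9.08 on the control arrays, with no overlap. The change there was -0.27, with a 95% interval from -0.46 to -0.07, and did not pass over all genes (adjusted p = 0.184). Of the 4 Kcnc1 probe sets, 3 were lower at 14 d and 1 had a change of 0.01 with overlapping groups, and none passed. For Kcnc1 and Kcnc2 the changes at the 2 times differed by 0.02 (95% interval -0.26 to 0.30) and 0.07 (-0.38 to 0.52).

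Parvalbumin interneurons are the cells in which Kcnc1 and Kcnc2 are best known. Of 7 markers of these cells tested, 2 fell and none rose at 8 h (Pvalb and Erbb4), and 1 fell at 14 d (Pvalb), with medians of -0.19 and -0.22. Over all genes the medians were -0.02 and -0.01, with 9.55% lower at 8 h and 0.57% lower at 14 d. The shares higher were 7.92% and 1.99%. The other markers did not pass, and neither did Kcnc1 nor Kcnc2 at 14 d. The summed level of the 7 markers was 11.36 to 11.54 (log2) on the KA arrays at 8 h against 11.59 to 11.68 on the controls, and 11.33 to 11.46 at 14 d against 11.62 to 11.64. Such a sum leans on the brightest gene of its list, here Cplx1, which averaged 11.20 on the control arrays at 8 h. Cplx1 itself did not pass at 8 h (log2 change -0.15, adjusted p = 0.284), so the sum does not speak for the whole list. Pvalb, the calcium buffer that names these cells, was lower by 1.46-fold at 8 h (adjusted p = 0.00354) and by 1.64-fold at 14 d (adjusted p = 0.00205). No marker of the list was at background on all arrays. Of 12 interneuron markers of all kinds, which include Pvalb and Erbb4, 2 rose and 3 fell at 8 h, and 1 rose and 1 fell at 14 d. The peptide genes Sst and Npy were 1.64-fold and 2.14-fold higher at 8 h, while Gad1, a GABA-synthesising enzyme of interneurons at large, had a log2 change of -0.00094 (adjusted p = 0.999). The part of these cells in the Kv3 changes was not tested, and fewer cells of a type cannot be told apart from less RNA per cell in whole tissue.

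Lists of other cell markers were mixed at 8 h. Beside their counts, 7.92% of all genes rose and 9.55% fell at 8 h, and 1.99% rose and 0.57% fell at 14 d. Of 10 general neuron markers 1 fell at 8 h and 1 at 14 d, and their summed level overlapped between KA (13.43 to 13.59) and control arrays (13.45 to 13.55) at 8 h. The one that fell at 8 h was the neuronal splicing factor Rbfox3, with a log2 change of -0.37 (adjusted p = 0.0234), and its change at 14 d was -0.19 (adjusted p = 0.501). Among the 6 markers of dentate granule cells, C1ql2 rose and Dsp and Calb1 fell at 8 h, and Dsp had by far the largest change of them, 3.91-fold lower. Their summed level was 9.97 to 10.21 on the KA arrays, against 10.36 to 10.61 on the controls. Of 5 CA3 markers only Nectin3 passed at 8 h, 1.67-fold higher, and the summed level was 10.07 to 10.30 on the KA arrays, against 9.61 to 9.66 on the controls. Nectin3 was also the brightest of the 5, at 9.62 against 8.88 on average, so the CA3 sum leans on it. Of 4 CA1 markers 1 fell at each time, Ccn3 at 8 h and Fibcd1 at 14 d (1.94-fold lower). The CA1 sum overlapped at 8 h and was 10.34 to 10.47 on the KA arrays at 14 d, against 10.62 to 10.66 on the controls. Of 7 oligodendrocyte markers 2 fell at 8 h (Mog, 1.61-fold, and Cnp, 1.22-fold), and their summed levels overlapped. At 8 h 2 of 9 astrocyte and 2 of 7 endothelial markers rose and 3 of 6 microglia markers fell. At 14 d 5 of 9 astrocyte markers and 5 of 6 microglia markers rose, with Gfap, the astrocyte filament, 3.36-fold and Aif1, the microglial Iba1, 1.80-fold higher. Of 11 immediate early genes 10 rose at 8 h, Fos among them, and at 14 d 10 of 11 had changes above 0 with no call in limma. The part of these cells and programmes in the changes of the Kv genes was not tested.

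**Figure D3:**
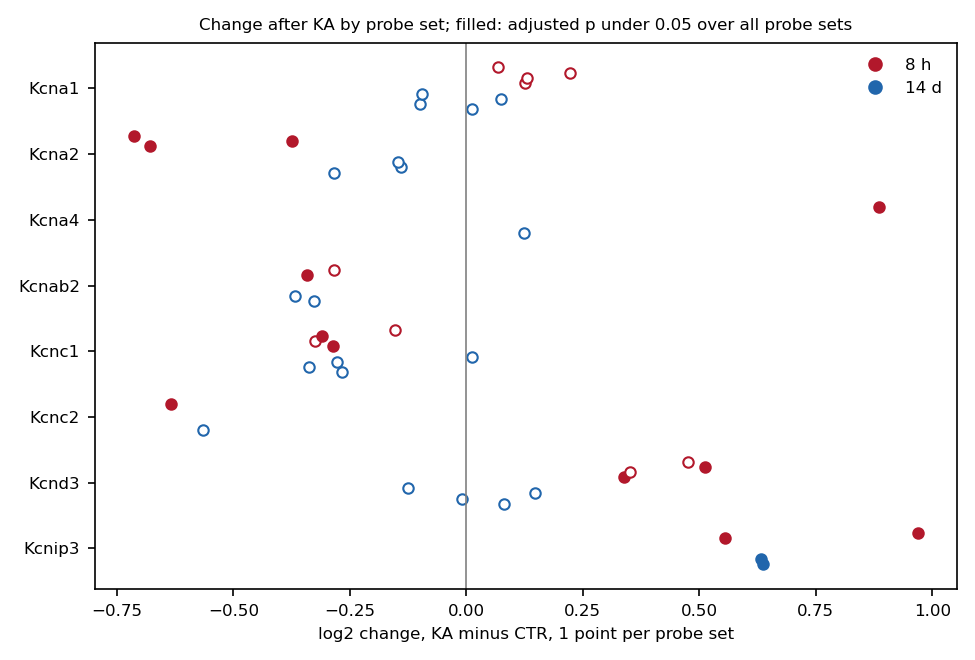
Log2 change (KA minus CTR) at each of the 21 probe sets of the 8 genes, at 8 h (red) and 14 d (blue), filled at an adjusted p under 0.05 over all probe sets. At 8 h all probe sets of a gene lie on one side of 0, where Kcna4 and Kcnc2 have 1 probe set each. The 2 filled points at 14 d are those of Kcnip3.

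Kcna4 and Kcnc2 have 1 probe set each, with no second one to compare. For every other gene of the 8, the probe sets agreed in sign at 8 h. Of the 21 probe sets, 5 rose and 7 fell at 8 h, where 14.8% of all probe sets passed, and 18 had separate KA and control ranges. At 14 d 2 rose, none fell at an adjusted p under 0.05 over all probe sets, where 1.68% passed, and 12 had separate ranges. Separate ranges were not counted over all probe sets. By gene they held for 33.8% of all genes at 8 h and for 16.5% at 14 d. Probe sets of 1 gene share their RNA and are no replicates. Between the control groups, 14 d minus 8 h, none of the 8 genes passed in limma, against 1.8% of all genes (1.12% higher and 0.679% lower). Kcnip3, Kcnd3 and Kcnc1 had an unadjusted p under 0.05 there, a level at which the share of all genes was not counted. Of the 8, 2 did not overlap at the probe set used (Kcnd3 and Kcnip3, both higher at 14 d), against 25.1%. Their other probe sets did not all go that way. Those of Kcnd3 changed by 0.34, -0.18 and -0.04 between the controls, and that of Kcnip3 by 0.12, with overlap. One dimmer Kcnc1 probe set did pass between the controls, at 6.40 ± 0.06 at 14 d and 5.96 ± 0.15 at 8 h (adjusted p = 0.0364 over all probe sets).

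The partners of these channels were described from lists of other Kv genes. Of 11 other auxiliary subunit genes tested, 3 fell and none rose at 8 h, with a median of -0.17, and 1 fell at 14 d, with a median of -0.07. Over all genes, 9.55% fell and 7.92% rose at 8 h and 0.57% fell at 14 d, with medians of -0.02 and -0.01. Kcnip2, which encodes the Kv4 partner KChIP2, averaged 8.04 ± 0.09 on the KA arrays and 8.81 ± 0.03 on the control arrays at 8 h (SD, n = 3 each), a 1.70-fold lower level (adjusted p = 3.00e-05). At 14 d it averaged 8.26 ± 0.07 against 8.80 ± 0.17 and was 1.45-fold lower (adjusted p = 0.00326). Kcnip2 and Kcnip3 thus lay on opposite sides of their controls at both times. A second Kcnip2 probe set fell as well, by changes of -0.59 and -0.61, while the remaining one had changes of 0.03 at 8 h and -0.08 at 14 d. Kcnab1, the gene of Kvβ1, which confers fast inactivation on Kv1 channels, averaged 8.30 ± 0.09 after KA at 8 h against 8.87 ± 0.11, or 1.49-fold lower (adjusted p = 0.000568). Dpp10, a transmembrane partner of Kv4, was 1.54-fold lower at 8 h (adjusted p = 0.00332), while its other probe set changed by -0.03. Kcnip1 and Kcnip4, at the probe sets used, had log2 changes of -0.29 and -0.27 at 8 h and did not pass (adjusted p = 0.0851 and 0.0545). Among their other probe sets, 2 of Kcnip4 fell (-0.57, adjusted p = 0.00315, and -0.35, adjusted p = 0.0268, over all probe sets) and 1 of 3 of Kcnip1 (-0.27, adjusted p = 0.0243). None of the probe sets of either gene passed at 14 d.

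Among 5 other pore subunits tested, Kcnc4, which encodes the inactivating Kv3.4, was 1.35-fold higher at 8 h (adjusted p = 0.00629), in the opposite direction to Kcnc1 and Kcnc2. It averaged 8.09 ± 0.15 on the KA arrays against 7.67 ± 0.14 on the control arrays. No other gene of that list passed at either time. Among 6 silent subunits, which form no channel alone but join other pore subunits, Kcnf1 (Kv5.1) was 1.55-fold higher at 8 h (adjusted p = 0.00118). Its log2 change at 14 d was -0.05, and the changes differed (-0.69 ± 0.16, adjusted p = 0.0203). That difference was lost without control 8 h replicate 1 (adjusted p = 0.0548), control 14 d replicate 1 (0.0613) or control 14 d replicate 2 (0.0524).

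Genes that anchor Kv1 channels or cluster them on axons fell in 4 of 9 cases at 8 h and rose in 1, with a median of -0.20, and none passed at 14 d. The shares over all genes at 8 h were 9.55% lower and 7.92% higher, with a median of -0.02. Adam22, the receptor of the secreted epilepsy protein Lgi1, was 1.37-fold lower (adjusted p = 0.00171). Dlg1, which encodes the scaffold SAP97, was 1.41-fold higher (adjusted p = 0.00794). Epb41l3 (protein 4.1B, which tethers axonal complexes) was 1.24-fold lower (adjusted p = 0.0166) and Adam11 1.22-fold lower (adjusted p = 0.0213). The Epb41l3 call was lost with cyclic loess (adjusted p = 0.0939) and on leaving out KA 8 h replicate 1 (0.0782) or control 8 h replicate 1 (0.0503) or 2 (0.0623). The Adam11 call was lost with cyclic loess (adjusted p = 0.0946) and on leaving out KA 8 h replicate 1 (0.0537) or 3 (0.0725) or control 8 h replicate 2 (0.0889) or 3 (0.0726).

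**Figure D4:**
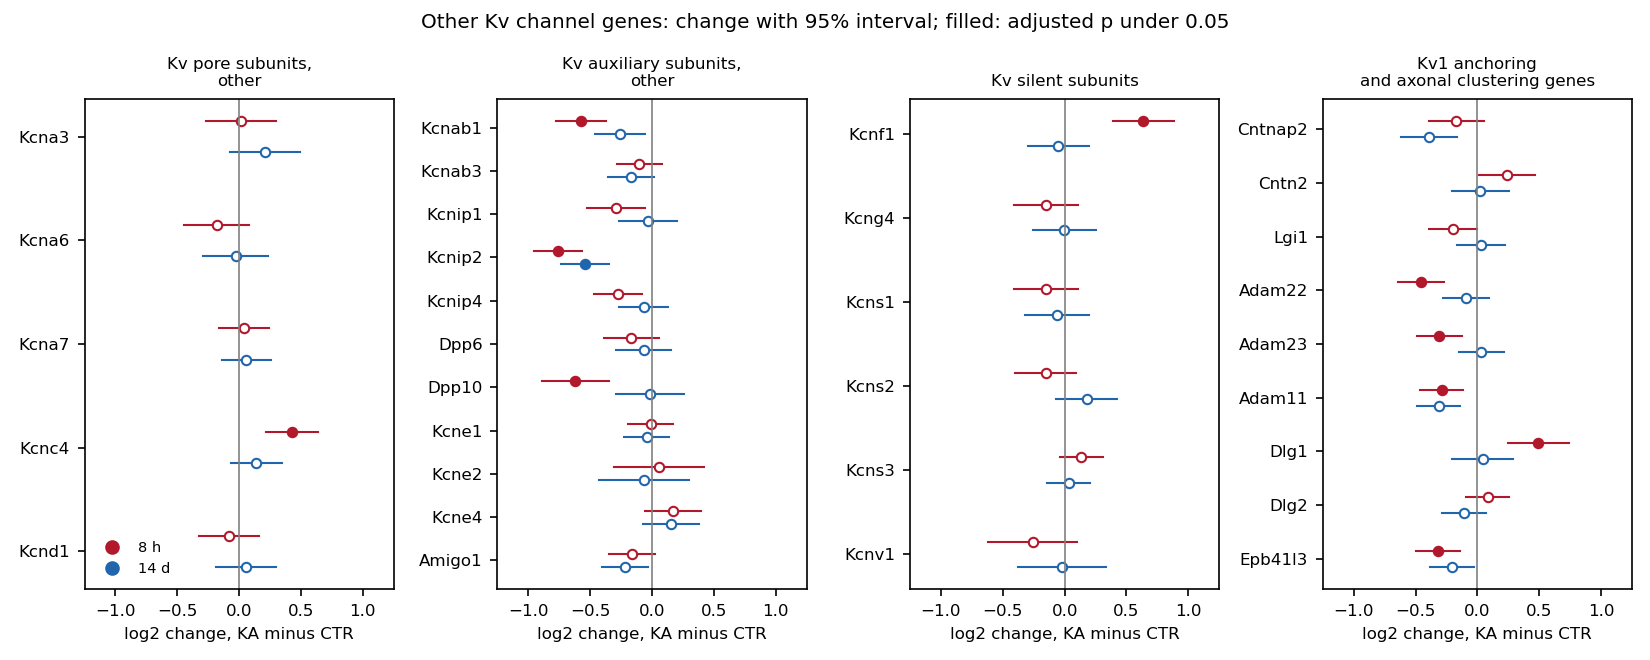
Log2 change (KA minus CTR) of other Kv pore, auxiliary and silent subunit genes and of Kv1 anchoring genes at 8 h (red) and 14 d (blue), with 95% intervals and filled points at an adjusted p under 0.05. Kcnip2 is filled at both times (-0.76 and -0.54). Kcnc4, Kcnf1 and Dlg1 are the filled points right of 0.

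Across the 12 arrays pairs of the 8 genes had Pearson correlations from -0.79 (Kcna2 and Kcna4) to 0.86 (Kcnab2 and Kcnc2). Kcnd3 and Kcnip3 correlated at 0.80, as did Kcnab2 and Kcnc1. Kcna1 correlated at -0.05 with Kcnab2, 0.01 with Kcnc2 and 0.21 with Kcnd3, and at 0.78 with Kcna4. These values share the 12 arrays and their group differences and are descriptions. The genes most like each member over the 12 arrays, by Pearson correlation, were Dip2c (0.99) and Fosl2 (0.98) for Kcna4, and Rab8b (0.96) and Actn1 (0.96) for Kcnip3. They were Ptpn12 (0.97) and Samd4 (0.95) for Kcnd3, Elf2 (0.95) and Malat1 (0.94) for Kcna1, and Gigyf1 (0.94) and Slc27a1 (0.94) for Kcna2. For Kcnab2 they were Hnrnpr (0.96) and Ociad1 (0.96), for Kcnc1 Smyd2 (0.98) and Sv2a (0.96), and for Kcnc2 Bnip3 (0.94) and Aph1b (0.93).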

How the data were processed

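The authors hybridised amplified cDNA to Affymetrix MG-430 PM array strips, and the deposited table holds log2 intensity values. RMA and affy are named in the submitters' processing notes, with no version or role. The table states no scale, and the log2 scale was read from its range (2.63 to 13.2). Of 45037 probe sets other than array controls, 28898 carried 1 gene symbol, 551 several and 15588 none. Each of 17097 genes was taken at its brightest probe set by mean, and 13853 genes above the array's 30th percentile (4.08 to 4.15) on at least 3 arrays were tested.

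One limma fit (version 3.58.1, R 4.3.3) held the 12 arrays and 4 group means, leaving 8 residual degrees of freedom. Tests were two-sided and adjusted by Benjamini-Hochberg over all genes tested, and a gene was called at an adjusted p under 0.05. Background was the mean of 11 GC-rich control probe sets (3.93 to 4.44). Summed marker levels are the log2 of summed linear values. Precision is limited by 3 arrays per group. The fit was also run on simulated data. Their noise was independent between arrays, so deviations that arrays share were not covered.

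The Kv genes and gene lists were chosen with earlier results of these data known. The 8 genes were always named, and up to 4 passing genes of each other Kv list by adjusted p. Cell markers and other partners named were chosen after their values were seen. At 8 h, deviations from group means of arrays sharing a replicate number correlated at 0.155, 0.138 and 0.413, above the bound of 0.1. At 14 d they were 0.164, 0.0684 and 0.463. Arrays of unlike number could also exceed that bound, as KA 2 with control 1 did (0.163 at 8 h and 0.349 at 14 d). Others were below 0, down to -0.443 for KA 3 with control 1 at 14 d. Replicate 3 had the lowest GC-rich background of each group (3.93 to 4.07). The labels do not say that replicate numbers pair samples, so the main fit had no block. Alternatives covered the filter, probe set choice, normalization, samples fitted, weights, prior, replicate block and each array left out. Some genes of the other Kv lists are not reported here, and Kcna5, Kcne3 and Kcnv2 did not pass the filter.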

Additional observations from a re-analysis of the deposited data

Results flagged for a closer look

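The change of Kcna4 at 14 d less its change at 8 h was -0.76 ± 0.16 (log2, adjusted p = 0.0118). It was singled out because the change after KA differed between the times by a direct test. All 3 KA arrays were above all controls at 8 h, while the groups overlapped at 14 d. The same test singled out Kcnf1, with a difference of -0.69 ± 0.16 (adjusted p = 0.0203), where 5.52% of all genes passed.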

How the results depend on the processing

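Precision is limited by 3 arrays per group. Kcna4, Kcnc2 and Kcnip3 kept their calls at 8 h in all 25 alternatives, and the Kcna4 difference between the times in all 24. Kcna4 and Kcnc2 have 1 probe set each, so the choice of probe set could not move their levels. Genes called with 1 array left out numbered 1658 to 2747 at 8 h (main 2420), 196 to 454 at 14 d (354), 508 to 899 for the difference of changes (764) and 86 to 421 between controls (249). The Kv genes called with 1 array left out numbered 4 to 7 at 8 h (main 7), 0 to 3 at 14 d (1), 1 to 1 for the difference (1) and 0 to 1 between controls (0). At 14 d the lowest count, 0, came without KA replicate 1, control replicate 2 or control replicate 3.

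With all probe sets tested the counts were 4843, 551, 1478 and 445 in that order, over 32790 features. With array weights, whose estimation stopped before converging, they were 2099 at 14 d, 2168 for the difference and 1336 between controls. With the replicate block they were 599, 1214 and 570, and with only the compared groups fitted 543 between controls; the cause was not tested. The replicate block joined arrays of the same replicate number over all 12 arrays and both times. At 8 h it changed no call among the Kv genes and called 3134 genes.

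The Kv genes called at 14 d numbered 2 with the mean of all probe sets, 2 with cyclic loess, 4 with array weights and 3 with the replicate block. Without the third arrays (added after seeing the data) 4 Kv genes were called at 8 h and 1 between controls. Between controls the count was 1 (Kcnip3) with cyclic loess, with only the compared groups, with array weights and with the replicate block. Kcnab2 at 14 d passed with the mean of probe sets (adjusted p = 0.0450), cyclic loess (0.0374), array weights (0.00487) and the replicate block (0.0340), Kcnc2 with array weights (0.000259) and the block (0.00270), and Kcnc1 with array weights (0.0318). Kcnc1 at 8 h did not pass with only the 8 h groups (adjusted p = 0.0522) or without the third arrays (0.156).

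Among the Kv genes, signs turned only for changes near 0. With the mean of probe sets, Kcna1 at 14 d was at -0.027 and the Kcnab2 difference of changes at -0.033. Without the third arrays, Kcna1 at 14 d was at -0.0095 and the differences of Kcnc1 and Kcnc2 at -0.016 and -0.025. Kcnab2 between controls was at -0.0062 with cyclic loess. With 1 array left out, Kcna1 at 14 d ranged from -0.052 to 0.094 and Kcnab2 between controls from -0.0081 to 0.082. The differences of changes then ranged from -0.047 to 0.10 for Kcnab2, -0.060 to 0.082 for Kcnc1 and -0.073 to 0.19 for Kcnc2. The share of 8 h calls that were higher was 45.3% and 53.5% with cyclic loess, and of control calls 62.2% and 50.4%.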
